A study of Mus musculus with 6 samples.

Results

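The circadian clock genes are described here by the histone marks mapped over them in mouse gastrocnemius, a limb muscle made mostly of fast fibres. The members are 10 genes of the clock, chosen by symbol and not by any measured value: Arntl (Bmal1 in newer naming), Clock, Per1, Per2, Per3, Cry1, Cry2, Nr1d1, Nr1d2 and Dbp. They are 10 of 21887 protein-coding genes, and for each one every peak in the gene and in 10 kb either side was taken from all 6 lists, which gave 42 peaks. The assay was CUT&RUN, in which a nuclease tethered by an antibody cuts out the DNA around a marked nucleosome. All mice were male, of C57BL/6 background and 4 weeks old, and all carried floxed Phf2 alleles on both chromosomes (Phf2 flox/flox). The control group (Ctrl) lacked Cre (Acta1 Cre-), and the knockout group (CKO) carried it (Acta1 Cre+), driven by the promoter of the skeletal muscle actin gene. That promoter is active in muscle fibres, so other cells of the tissue need not have lost Phf2. H3K9me2 was mapped in both genotypes and H3K4me3 in Ctrl alone, from a sample whose title says wild type although its genotype field reads as for Ctrl. Input libraries numbered 2 for Ctrl and 1 for CKO.

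In the mammalian clock, BMAL1 (the product of Arntl) and CLOCK bind DNA together at E-boxes and switch on Per and Cry genes, and PER and CRY proteins then return to block them. In a second loop BMAL1 and CLOCK switch on Nr1d1 and Nr1d2, whose products REV-ERBα and REV-ERBβ are heme-binding nuclear receptors that repress Arntl. In skeletal muscle this clock times the use of glucose and fat, and transcripts of these genes rise and fall over the day. The mice were kept in a 12 h light phase alternating with dark, and the sources used here do not give the hour at which muscle was taken. H3K4me3 marks active or poised promoters, H3K9me2 is a repressive mark, and PHF2, which the study examined in muscle, has been described as a demethylase of H3K9me2 that binds H3K4me3.

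Each gene was represented by 1 library of H3K4me3 and 1 of H3K9me2 per genotype, so values are described without replicates and the genotypes were set side by side without a test. The lists held 16573 H3K4me3 peaks, 3703 (Ctrl) and 12832 (CKO) H3K9me2 peaks, and 3071, 1309 and 10931 peaks in Ctrl input 1, Ctrl input 2 and the CKO input. Fold is the authors' value for each peak, the fragments at its summit plus 1 divided by the local background plus 1, which lowers the fold of peaks with few fragments. The number of fragments at the summit was recovered from the fold and its p-value. Genome-wide coverage, a measure of depth, was taken as the lowest local background recovered for the peaks of each list, and was not counted from reads. It was 0.482 fragments per position for H3K4me3, and 0.391 and 0.544 for H3K9me2 in Ctrl and CKO. For the inputs it was 0.294 and 0.292 in Ctrl and 0.371 in CKO. Of 10 skeletal muscle markers 7 had an H3K4me3 peak within 2 kb of a start site, Ckm, Acta1 and Mb being the exceptions. So had 2 of 4 endothelial markers, 2 of 4 Schwann cell markers, 1 of 4 liver markers, and 0 of 4 each for fibroadipogenic, immune and adipocyte cells. Highly expressed muscle genes can thus lack a listed peak. Over all protein-coding genes the share with such a peak was 60.0%, and the 7 of 10 muscle markers lay near it. The liver marker with a peak, Apoa1, had 7 fragments at its summit.

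The promoters that follow are shown because they hold a clock element and because H3K4me3 covered most or all of each. They come from RefSeq (GRCm38.p6, the assembly that mm10 is based on), run 5′ to 3′ on the gene's strand from 250 bases before the start site to 50 after it, and matched 9 of the 10 members at 13 start sites. Capitals mark clock elements: the E-box CACGTG, the related AACGTG, the D-box TTATGTAA, at which DBP and its relatives bind, and the letters TAGGTCA, the core of the element bound by REV-ERB and ROR receptors.
Cry1, chr10:85185005-85185304, minus strand: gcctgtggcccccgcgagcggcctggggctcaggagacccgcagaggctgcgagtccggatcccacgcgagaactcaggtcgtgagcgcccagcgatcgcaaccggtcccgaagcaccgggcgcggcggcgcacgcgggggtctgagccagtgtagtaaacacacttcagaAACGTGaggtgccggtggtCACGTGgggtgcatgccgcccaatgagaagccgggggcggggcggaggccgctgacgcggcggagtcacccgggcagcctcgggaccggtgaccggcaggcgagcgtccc
Per1, first start, chr11:69098699-69098998, plus strand: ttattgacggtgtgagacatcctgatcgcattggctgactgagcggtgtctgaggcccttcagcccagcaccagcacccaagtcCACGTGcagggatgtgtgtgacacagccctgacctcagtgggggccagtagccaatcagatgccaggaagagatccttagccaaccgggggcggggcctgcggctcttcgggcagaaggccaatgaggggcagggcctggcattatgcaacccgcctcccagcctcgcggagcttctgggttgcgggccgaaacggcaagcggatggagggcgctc
Cry2, chr2:92434020-92434319, minus strand: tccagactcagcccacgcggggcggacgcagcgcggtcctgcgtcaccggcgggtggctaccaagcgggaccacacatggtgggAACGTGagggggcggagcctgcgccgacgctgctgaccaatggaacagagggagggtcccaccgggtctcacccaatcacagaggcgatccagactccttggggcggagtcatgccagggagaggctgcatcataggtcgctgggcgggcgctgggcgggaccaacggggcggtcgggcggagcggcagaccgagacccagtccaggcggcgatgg
Nr1d1, chr11:98775328-98775627, minus strand: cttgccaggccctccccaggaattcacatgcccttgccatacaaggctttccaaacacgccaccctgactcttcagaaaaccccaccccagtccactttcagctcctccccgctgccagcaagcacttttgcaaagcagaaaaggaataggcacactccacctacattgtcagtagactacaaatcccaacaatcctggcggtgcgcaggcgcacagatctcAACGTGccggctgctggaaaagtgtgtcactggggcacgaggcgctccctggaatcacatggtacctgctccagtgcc
Per3, chr4:151044616-151044915, minus strand: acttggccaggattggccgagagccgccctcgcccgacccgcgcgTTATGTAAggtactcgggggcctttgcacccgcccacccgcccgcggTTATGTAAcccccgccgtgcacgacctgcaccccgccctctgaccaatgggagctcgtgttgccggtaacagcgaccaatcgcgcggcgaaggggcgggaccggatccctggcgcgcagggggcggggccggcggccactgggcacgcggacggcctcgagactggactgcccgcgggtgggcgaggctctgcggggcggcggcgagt
Arntl, second start, chr7:113207261-113207560, plus strand: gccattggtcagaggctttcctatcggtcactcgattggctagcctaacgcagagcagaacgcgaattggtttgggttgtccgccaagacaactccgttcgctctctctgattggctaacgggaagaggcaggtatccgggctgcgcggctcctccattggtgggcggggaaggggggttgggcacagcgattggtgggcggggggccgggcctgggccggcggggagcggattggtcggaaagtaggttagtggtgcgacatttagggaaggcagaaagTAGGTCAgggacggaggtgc

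Cry1 held both kinds of E-box, AACGTG at -79 to -74 and CACGTG at -60 to -55 from its start site. Per1 held CACGTG at -166 to -161 from its first start, Cry2 held AACGTG at -166 to -161, and Nr1d1 held it at -28 to -23. Per3 held 2 D-boxes, at -205 to -198 and at -158 to -151. Arntl held TAGGTCA after its second start, at 31 to 37, in the promoter of the gene that REV-ERB proteins are known to repress. Searched on both strands, CACGTG was found in 7.84% of 21263 RefSeq promoters of protein-coding genes of the same length, AACGTG in 4.68%, TTATGTAA in 0.894% and TAGGTCA in 2.32%. The D-box variant TTACGTAA (0.136% of promoters) and the second receptor core TGGGTCA (3.56%) were in no member's promoter. These motifs do not overlap each other here. A match is a description of the letters and not of a bound site, and windows without a match say nothing of the factor.

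The same 13 promoters were mostly rich in GC and in CpG, the dinucleotide that marks CpG islands. Their GC content ran from 47.0% to 76.7%, where the median of all promoters was 56.3%, and their CpG count from 9 to 46, where the median was 13. Clock lay highest, with 42 and 46 CpG at its first and second starts, followed by Per3 (41) and Cry1 (38). Nr1d1, with 9 CpG and 56.3% GC, and the third Clock start, with 9 and 47.0%, lay lowest. H3K4me3 covered all 300 bases at 10 of the 13, 261 at the first Per1 start, 158 at Nr1d1 and 0 at the third Clock start. Clock was thus marked at its CpG-rich starts and not at the CpG-poor one.

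All 10 clock genes carried H3K4me3 in Ctrl muscle within 2 kb of a start site, where 60.0% of all protein-coding genes did. In the gene and 10 kb either side the figures were 10 of 10 and 68.1%. The 10 windows held 25 H3K4me3 peaks: 15 at starts, 1 in a gene body away from a start and 9 in the flanks. For Per2 both gene ends were used, and 1 of the 15 is the peak at its lower end, which lies over Hes6.

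**Figure D1:**
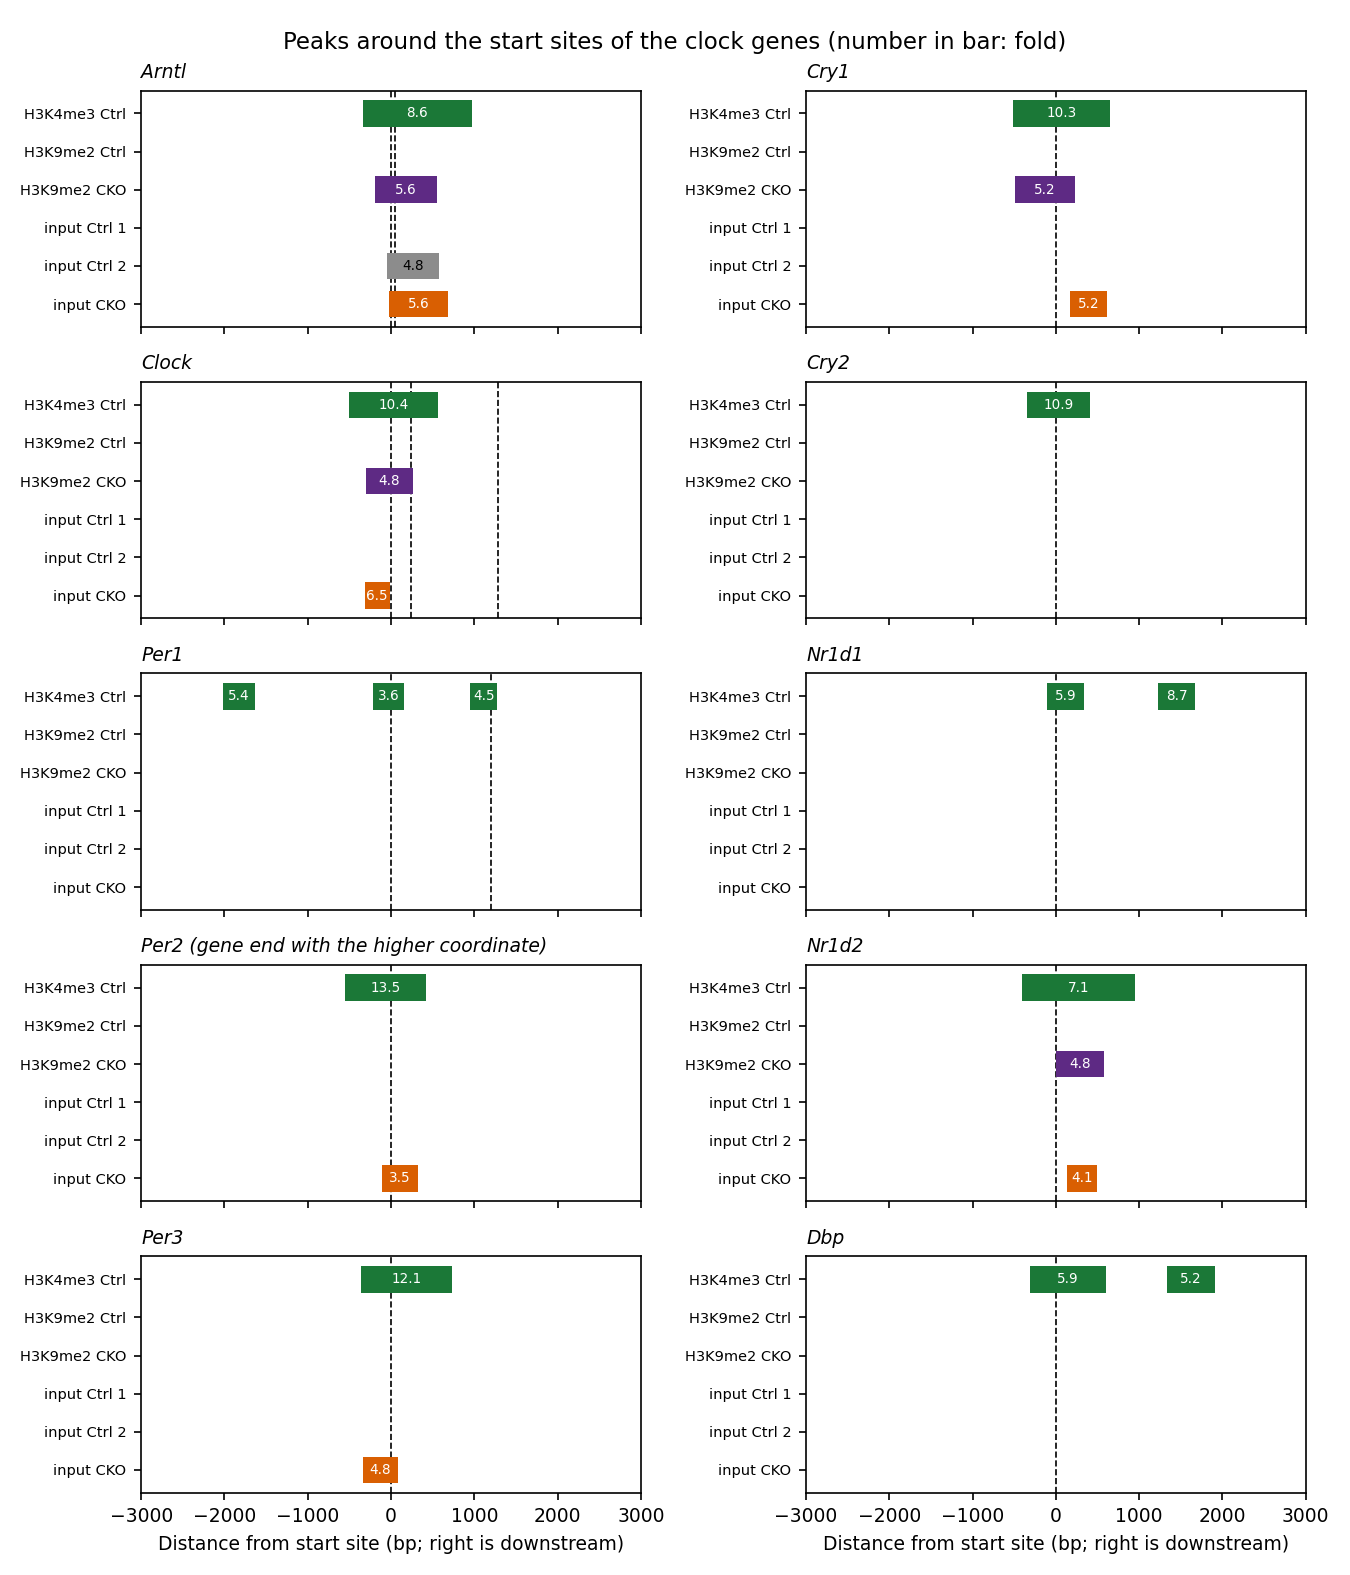
Peaks around the start sites of the 10 clock genes, 1 row per library. The x axis is distance from the outermost start site in bp with downstream to the right (except Per2), dashed lines are start sites, each bar is a peak and the number in it is the authors' fold. Per2 is drawn from its gene end with the higher coordinate, in chromosome direction, and H3K4me3 spans a start in all 10 genes, H3K9me2 peaks appear in CKO in 4 genes, inside the H3K4me3 peak, and the H3K9me2 Ctrl rows are empty.

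The activators came first in the strength of the summit. Clock, which encodes the partner of BMAL1 (chromosome 5, 76209868 to 76305603), had a peak at 76304229 to 76305296 with 156 fragments at its summit and a fold of 10.4. Its summit count lay above that of 99.2% of the 13142 genes with H3K4me3 at a start, and its fold above that of 42.4%. The peak spanned the first and second start sites, with its summit at -168 bp from the first. Arntl (chromosome 7, 113178471 to 113314126) had a peak at 113207123 to 113208436 with 104 fragments and a fold of 8.64, spanning both of its RefSeq starts with the summit 411 bp downstream of the nearer. Those starts lie inside the gene as annotated. No H3K4me3 peak lay within 2 kb of either gene end of Arntl, so the mark was on the internal starts.

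The Period genes, whose products carry the inhibitory complex, differed most among themselves. Per2 (chromosome 1, 91415977 to 91459351) had the highest fold of the 10, 13.5, with 90 fragments, in a peak at 91458796 to 91459775 over its higher gene end. Per3 (chromosome 4, 150997018 to 151044707) followed with a fold of 12.1 and 68 fragments, and its summit lay 4 bp from the start site. Gm38529, a protein-coding gene of the table, starts under the same Per3 peak, so the peak cannot be assigned to Per3 alone. Per1 (chromosome 11, 69095108 to 69109965) had 3 narrow peaks, 321 to 385 bp wide, in place of a wide one. The first had its summit at -1845 bp from its first start (69096932 to 69097316, fold 5.37, 48 fragments), the second over the first start (69098738 to 69099106, fold 3.64, 32 fragments) and the third over the second start (69099901 to 69100221, fold 4.54, 40 fragments). The Per1 peaks are thus separate as called, and the upstream one lies inside the gene as annotated but at neither RefSeq start used here. Local background at the 3 peaks was 8.02 to 8.13 fragments, against a genome-wide coverage of 0.482. Sequence between them need not lack the mark.

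The Cryptochrome genes, whose products repress BMAL1 and CLOCK, lay next to each other in summit count, and Clock lay between them in fold. Cry1 (chromosome 10, 85131700 to 85185054) had a peak at 85184408 to 85185568 with a fold of 10.3 and 101 fragments. Cry2 (chromosome 2, 92403646 to 92434085) had a peak at 92433664 to 92434417 with a fold of 10.9 and 92 fragments. Both summits lay just downstream of the start, at 95 bp in Cry1 and 112 bp in Cry2. The exact 95% Poisson intervals of their counts, 82.3 to 123 and 74.2 to 113, overlapped. The Cry1 peak was 1161 bp wide and the Cry2 peak 754 bp.

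The REV-ERB genes were less alike. Nr1d2 (chromosome 14, 18204056 to 18239106) had a single peak of 1358 bp at 18238156 to 18239513, the widest peak over a member's own start, with a fold of 7.05. Its 44 fragments were the lowest of the 10 when each gene is taken at its highest summit. Its summit lay 728 bp into the gene. Nr1d1 (chromosome 11, 98767932 to 98775377) had a peak over its start (98775034 to 98775485, fold 5.93, 47 fragments) and a stronger one centred inside the gene, its summit 1488 bp downstream (98773707 to 98774147, fold 8.74, 73 fragments). A further Nr1d1 peak at the other end, 98768134 to 98768547 (fold 4.37), lies where the gene overlaps Thra, which encodes a thyroid hormone receptor. Dbp (chromosome 7, 45705100 to 45710203), a bZIP factor that BMAL1 and CLOCK switch on, had a peak over its start (45704931 to 45705847, fold 5.85, 84 fragments) and a second with its summit 1587 bp into the gene (45706577 to 45707152, fold 5.17, 72 fragments). At Per1, Nr1d1 and Dbp the caller therefore listed 2 or more peaks, which does not show that the sequence between them was unmarked.

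Of genes with H3K4me3 at a start, 7.15% had 2 or more such peaks within 2 kb of a start and 0.54% had 3 or more. Among the clock genes 4 of 10 had 2 or more (Per1, Per2, Nr1d1 and Dbp) and Per1 had 3. The second Per2 peak is the one over Hes6, which leaves 3. Genes with more than 1 start have more sequence in which to find a peak, and of these 4 that holds for Per1, with 2 RefSeq starts, and for Per2, where both ends were used.

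The medians of the clock genes lay above those of all genes in summit count and in local background, and below in fold, which sets the first against the second. The highest summit at a start had a median of 87 fragments over the 10, against 68 over all genes with H3K4me3 at a start, and 7 of 10 lay above that all-gene median. The highest fold had a median of 9.52 against 11.2, and 8 of 10 lay below the all-gene median, Per2 and Per3 being the exceptions. Local background at the strongest summit had a median of 7.85 fragments against 4.53, with 14.0 at Clock, 13.5 at Dbp and 11.1 at Arntl. Dbp shows both sides: its count exceeded 64.3% of genes and its fold 6.99%. These medians were not tested. Local background at these summits lay above the genome-wide coverage of 0.482 fragments, and whether H3K4me3 nearby raised it was not tested. A fold below the all-gene median thus does not show a weaker mark.

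**Figure D2:**
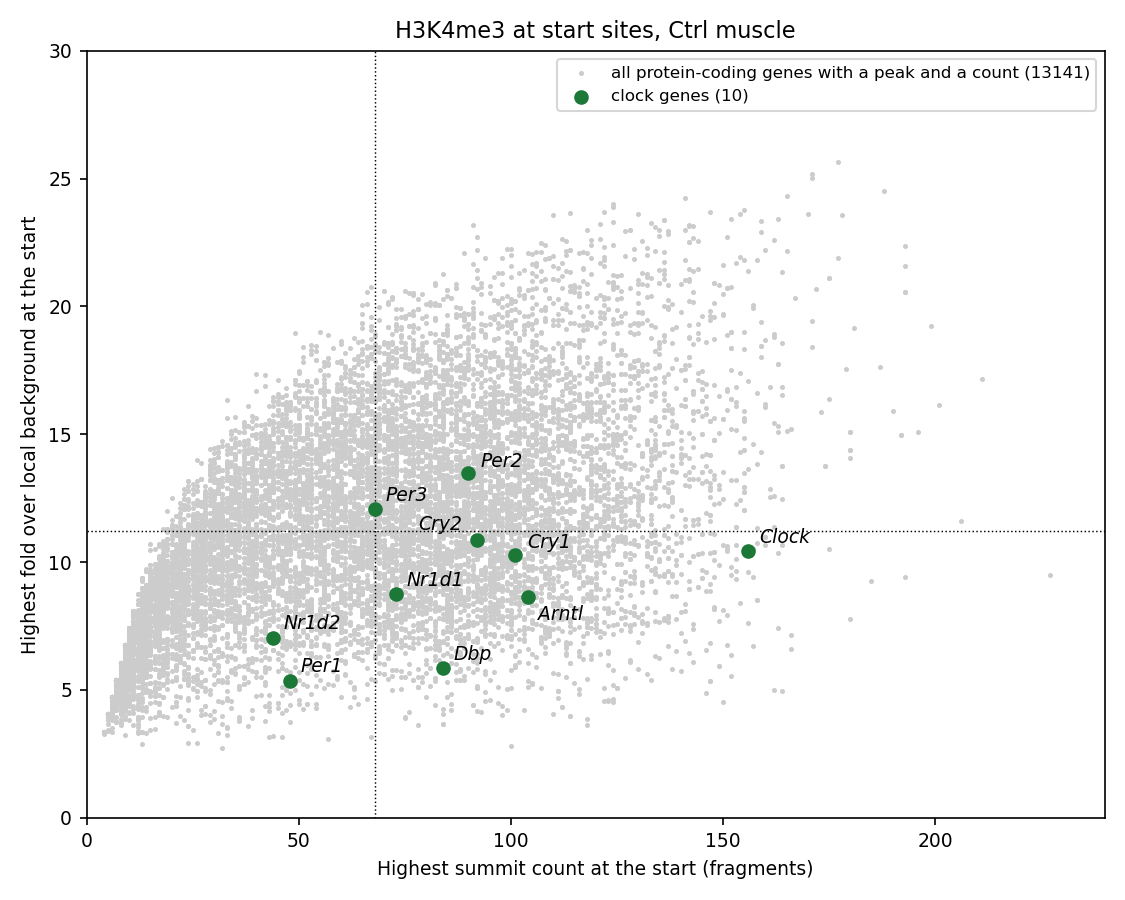
Highest H3K4me3 fold (y axis) against highest summit count in fragments (x axis) within 2 kb of a start, in the Ctrl library. Grey points are the 13141 protein-coding genes with such a peak and a recovered count, green points the 10 clock genes, and dotted lines the all-gene medians of 11.2 and 68. Clock lies far to the right at 156 fragments, and Per1 and Dbp lie low, at folds of 5.37 and 5.85.

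By summit count the order was Clock (156), Arntl (104), Cry1 (101), Cry2 (92), Per2 (90), Dbp (84), Nr1d1 (73), Per3 (68), Per1 (48) and Nr1d2 (44). Clock stood apart from the next gene, its exact 95% Poisson interval of 132 to 182 lying above the 85.0 to 126 of Arntl. Each other neighbouring pair in this order had overlapping intervals, which cover counting error alone. The ends of the order were separate too, with 32.0 to 59.1 for Nr1d2 and 35.4 to 63.6 for Per1 against 72.4 to 111 for Per2 and all genes above it.

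Peaks of H3K9me2 addressed whether the repressive mark lay at clock genes with and without PHF2 in muscle fibres. In Ctrl no clock gene had an H3K9me2 peak anywhere in the window (0 of 10, against 6.34% of all protein-coding genes). The nearest Ctrl peak to any of them lay 153 kb from Nr1d1, and the farthest nearest peak 1910 kb from Per1. In CKO 4 of 10 had such a peak, Arntl, Clock, Cry1 and Nr1d2, against 19.4% of all genes. All 4 peaks lay at start sites, where 9.36% of all genes and 13.6% of genes with H3K4me3 at a start had a CKO H3K9me2 peak. The other 6 members had no CKO peak in the window. Per1 had the nearest, 12.2 kb from the gene, and Per3 the most distant, at 909 kb.

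The 4 CKO peaks covered the same promoters that carried H3K4me3 in Ctrl. At Arntl the CKO peak lay at 113207271 to 113208012 with a fold of 5.65 and 9 fragments, which includes the receptor core printed above. At Clock it lay at 76304531 to 76305089 (fold 4.82, 7 fragments). At Cry1 it lay at 85184830 to 85185546 (fold 5.22, 8 fragments) and covered both E-boxes. At Nr1d2 it lay at 18238527 to 18239107 (fold 4.78, 8 fragments). Each was wholly inside the H3K4me3 peak of its gene, all 742, 559, 717 and 581 bp being shared. H3K4me3 was not mapped in CKO, so the pairing is between genotypes.

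Each of these 4 CKO peaks also overlapped a peak of the CKO input, by 573 bp at Arntl, 280 bp at Clock, 51 bp at Cry1 and 360 bp at Nr1d2. Such overlap was common: of all 1792 CKO H3K9me2 peaks on an H3K4me3 peak, 65.0% overlapped a peak of at least 1 input. When H3K9me2 peaks that overlap any input peak were left out, 0 of 10 clock genes kept one in CKO, against 12.5% of all genes, or 3.82% at a start. In Ctrl the count was again 0 of 10, where 3.92% of all genes kept one, or 0.982% at a start. Relative to genome-wide coverage, the H3K9me2 summits stood at 16.6 (Arntl), 12.9 (Clock), 14.7 (Cry1) and 14.7 (Nr1d2) times. The CKO input summits stood at 21.6, 29.7, 24.3 and 16.2 times, higher at each of the 4 starts, with overlapping exact 95% Poisson intervals (5.18 to 26.5 for H3K9me2 and 14.8 to 53.1 for input at Clock). The H3K4me3 summits at the same starts stood at 216, 324, 210 and 91.3 times. H3K9me2 was thus below input at all 4 starts by point value, a difference that was not tested, and both were far below H3K4me3. Local background was 0.661 to 0.881 fragments at the 4 H3K9me2 peaks. The H3K9me2 and CKO input summits lay at 349 and 408 bp from the nearer start at Arntl. They lay at -157 and 318 bp from the start at Cry1, and at 224 and 488 bp at Nr1d2. At Clock the summits lay closest together, at -207 and -204 bp from the first start. The CKO input summit had 11 fragments there and the H3K9me2 local background was 0.661, so that fold made no allowance for this input. The part that the signal in input plays in these 4 peaks was not tested.

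Depth limits the comparison between genotypes at these genes. CKO H3K9me2 had 1.39 times the coverage of Ctrl, and its 7 to 9 fragments would be 5.03 to 6.47 at Ctrl coverage. The smallest Ctrl summits had 4 fragments, and 28.2% of Ctrl peaks had 5 or fewer. An absent Ctrl peak at Arntl, Clock, Cry1 or Nr1d2 thus does not show that the mark was absent or lower. None of the 4 CKO peaks reached q of 1e-05, and none was among the first 3703 CKO peaks by p-value, the number in the Ctrl list.

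Input peaks stood at more clock genes in CKO, whose input list is also the longest, than in Ctrl. In the gene and 10 kb either side the CKO input had a peak at 8 of 10 (39.8% of all genes), Ctrl input 1 at 2 (11.8%) and Ctrl input 2 at 1 (5.37%). At start sites the counts were 6 (26.0%), 0 (7.01%) and 1 (3.23%). Among genes with H3K4me3 at a start, as all 10 have, the CKO input shares were higher, 53.6% in the window and 40.2% at a start. The 6 with a CKO input peak at a start were Arntl, Clock, Per2, Per3, Cry1 and Nr1d2, and all of these input peaks lay inside H3K4me3 peaks. Among these 6 the CKO H3K9me2 list had a peak at 4, and among the other 4 at 0. Of all genes with H3K4me3 at a start, 20.6% of those with a CKO input peak there had a CKO H3K9me2 peak, against 8.84% of those without. The 2 Ctrl inputs named different clock genes: input 1 Clock and Per2, both away from the start, and input 2 Arntl at its start, where 7 fragments gave a fold of 4.79. Nr1d1 and Cry2 had no peak in any input or H3K9me2 list.

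**Figure D3:**
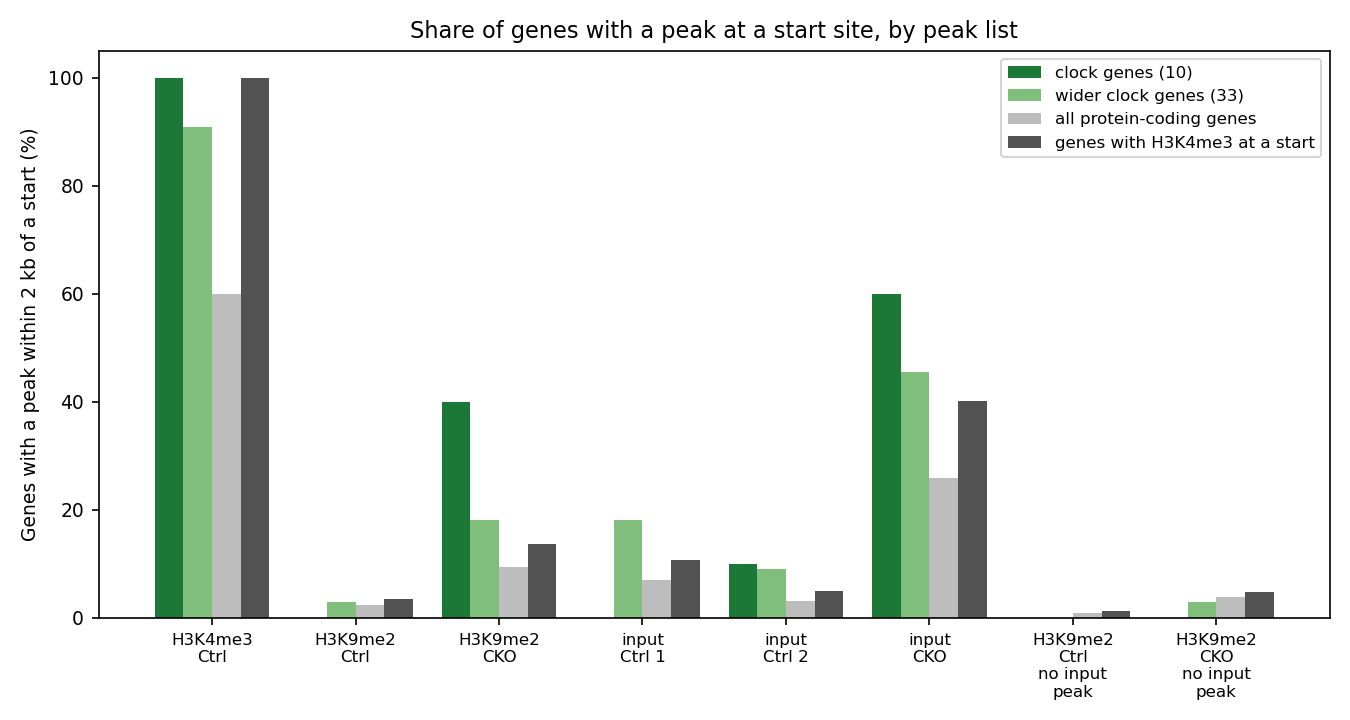
Percent of genes (y axis) with a peak within 2 kb of a start in each of the 6 peak lists and in both H3K9me2 lists without peaks that overlap an input peak. Bars are the 10 clock genes, the 33 wider clock genes, all protein-coding genes and the genes with H3K4me3 at a start. Clock genes are at 10 of 10 for H3K4me3, 4 of 10 for CKO H3K9me2 and 0 of 10 once input peaks are left out.

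Beyond the members, 33 other genes of the clock were examined. Of these, 30 had H3K4me3 at a start (60.0% of all genes), with a median fold of 9.79, beside 9.52 for the members. Among paralogs and receptors of the core loop 4 of 5 had it. Highest in fold was Rorb (10.2, 26 fragments), which encodes a receptor of the ROR family. The exception was Arntl2, a paralog of Arntl, which had a peak when either gene end was used in place of the start. All 3 among Dbp's relatives and their repressor had it, with Hlf at a fold of 13.0 and Tef at 7.98. Nfil3, which encodes the repressor at D-boxes, was at 6.38 with 88 fragments. All 4 repressors of E-box activity had H3K4me3 at a start, Ciart being the highest in fold at 14.8. Bhlhe41 was the lowest in fold of the whole list at 5.64. Its summit count of 111 fragments nevertheless exceeded the 66 of Ciart, so the order by fold is not that by summit count. Among kinases, ubiquitin ligases and partners of PER and CRY 10 of 11 had it, with Tipin at 19.3 and Fbxl21 at 14.4 leading and Timeless without, unless either gene end was used in place of the start. Among outputs 9 of 10 had it, Tcap, a muscle sarcomere gene, being the lowest at 6.60, and Ucp3, a mitochondrial carrier gene, was without. For 9 of the 33, Tipin and Tcap among them, either gene end was used, so the peak may be a neighbour's.

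**Figure D4:**
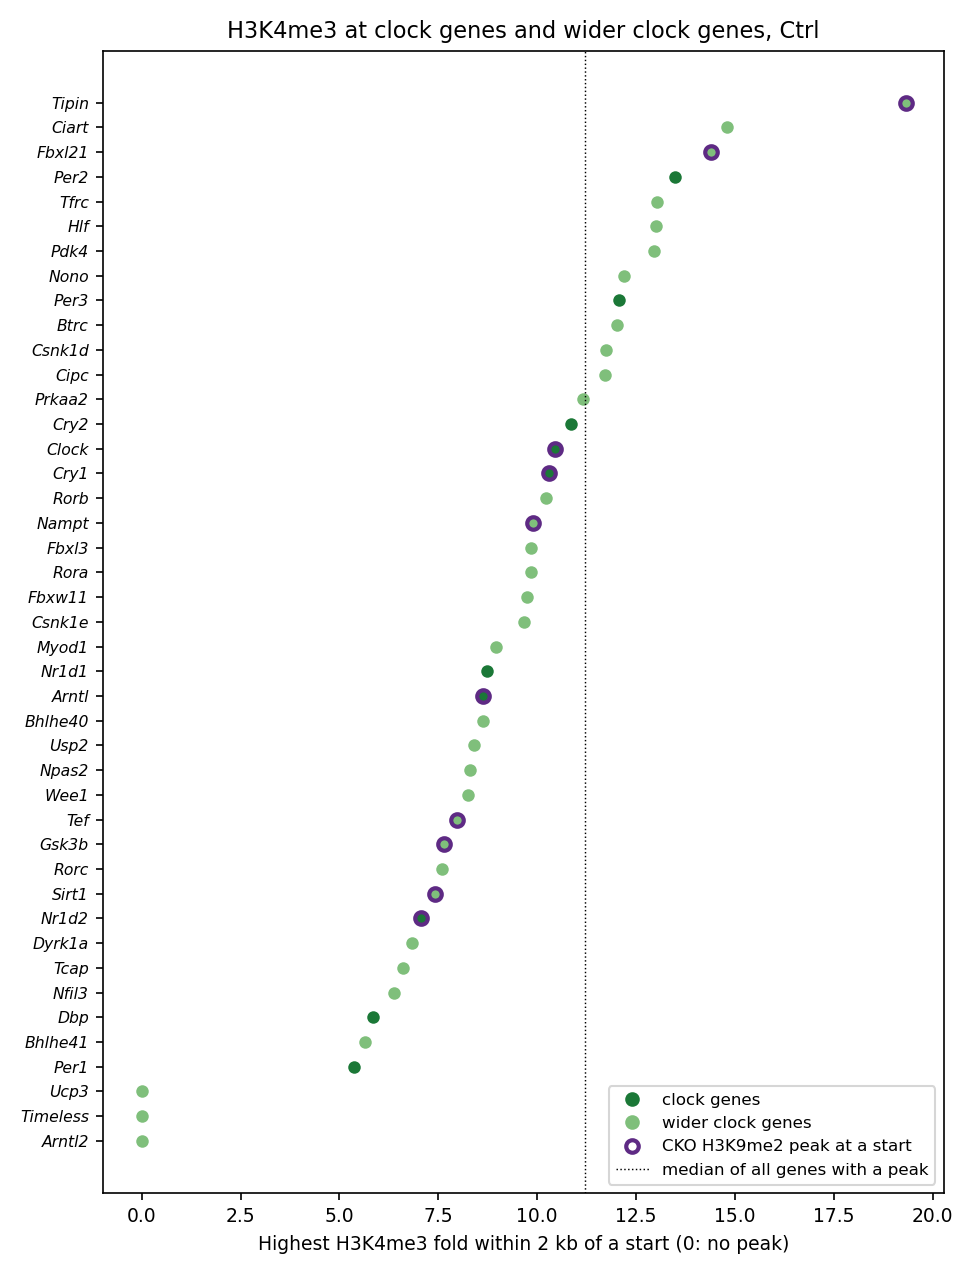
Highest H3K4me3 fold within 2 kb of a start (x axis, 0 where there was no peak) for the 10 clock genes (dark green) and the 33 wider clock genes (light green) in Ctrl. Purple rings are genes with a CKO H3K9me2 peak at a start, and the dotted line is the median of 11.2 over all genes with a peak. Tipin is highest at 19.3 and Per1 lowest of those with a peak at 5.37, and ringed genes lie between 7.05 and 19.3.

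H3K9me2 at these 33 genes was found at 1 start in Ctrl and at 6 in CKO (2.46% and 9.36% of all genes). Nampt, which encodes the rate-limiting enzyme of NAD salvage and is a clock target, was the gene marked in both, at chromosome 12, 32820313 to 32820714 in Ctrl (fold 4.31, 5 fragments) and 32820107 to 32820462 in CKO (fold 6.14, 9 fragments). The other CKO starts were those of Tef (fold 5.11), Gsk3b (5.08), Fbxl21 (5.50), Tipin (5.18) and Sirt1 (5.11). As at the members, all 6 lay on an H3K4me3 peak, and all but the Gsk3b peak overlapped an input peak. Gsk3b still had input peaks within 2 kb of a start, in Ctrl input 1 (fold 4.17) and the CKO input (fold 4.83). The Ctrl Nampt peak overlapped an input peak as well. With such peaks left out 0 of the 33 kept a Ctrl H3K9me2 peak, against 3.92% of all genes, or 0.982% at a start. In CKO 3 of the 33 kept one in the gene and 10 kb either side, Gsk3b, Hlf and Rorb, against 12.5% of all genes. Away from starts, CKO had a peak in the body of Hlf (chromosome 11, 90340664 to 90341102, fold 7.13, 10 fragments) and in the flank of Rorb (chromosome 19, 18926444 to 18926879, fold 6.90, 11 fragments), neither with an input or H3K4me3 peak.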

How the data were processed

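Peak lists of 6 CUT&RUN libraries were used, grouped by title and genotype label. The submitters' processing notes name Bowtie2, MACS2 and the build mm10. The sources used here do not give versions, settings, any use of input as control, or whether libraries came from separate animals. Each peak carries, as the authors deposited it, a fold (the ratio of summit plus 1 to local background plus 1, as the listed p-values bear out), −log10 of the p-value and of the q-value, a score (10 times the latter) and a summit offset. H3K9me2 often lies in broad domains, and the lists hold narrow peaks.

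Unplaced contigs were left out, and overlap meant 1 bp or more. Summit fragments are the whole number that, with the fold, gives the listed −log10 p within 0.1%, and were found for 99.0% to 99.97% of each list. Intervals are exact Poisson at 95% and cover counting error alone, since fragments are not replicate animals and the caller chose the summits as local maxima. Gene positions are RefSeq's for GRCm38.p6 (21887 protein-coding genes). Start sites came from the RefSeq promoter table for 17492 of these, and both gene ends were used for the others. The members, lists and rules were chosen with earlier results of these data known. Named were the 10 members, their peaks, and neighbours at those peaks. Of the 33 wider clock genes, those named had the 3 highest or lowest H3K4me3 folds, no peak at a start, or an H3K9me2 peak. Also named were the 5 genes nearest the members' median profile. Alternatives were windows of 1, 2, 5 and 20 kb, stricter peaks, summits in the window, merged peaks, lists of equal length, removal of input peaks and leaving out either Ctrl input. Counting was checked on simulated peaks. Tools were Python 3.11.15 with scipy 1.17.1, pandas 2.3.3, numpy 2.4.6 and, for figures, matplotlib 3.10.9.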

Additional observations from a re-analysis of the deposited data

How the results depend on the processing

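Of 44 alternatives, 34 left a count within 1.5 times or a value unchanged. Some of these could not change, such as stricter peaks or removal of input peaks for the Ctrl H3K9me2 count of 0. With H3K4me3 peaks at or above the list's median fold, clock genes marked at a start fell from 10 to 5 and wider clock genes from 30 to 12. The median H3K4me3 fold of 9.52 was 9.47 with the peak nearest the start and 9.47 within 1 kb. The CKO H3K9me2 count of 4 was 0 at q of 1e-05 or less, 0 with input peaks left out and 0 with lists of equal length. At q of 1e-05 or less, clock genes with an input peak were 0 in Ctrl (from 3) and 2 in CKO (from 8). Leaving out either Ctrl input gave 1 to 2, with 1 (Arntl) without input 1. Either gene end in place of the start, added after seeing the data, gave 9, without Arntl. For the wider genes it gave 30 again, with Arntl2 and Timeless gained and Cipc and Csnk1e lost. No paired analysis was possible because each mark has 1 library per genotype. Depth limits H3K9me2, whose summits rest on 7 to 9 fragments.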

Other observations

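Clock and Cry1 carried input peaks inside the gene, far from the start. In Clock, Ctrl input 1 (76223652 to 76224043, fold 4.78, 6 fragments) and the CKO input (76223699 to 76224286, fold 5.80, 9 fragments) overlapped by 345 bp, with summits 79570 (Ctrl input 1) and 79534 bp (CKO input) downstream of the third start. Neither H3K4me3 nor H3K9me2 had a peak there. In Cry1 the CKO input had a peak at 85146049 to 85146409 (fold 4.93, 6 fragments), without a mark in the other lists. Of the 9 H3K4me3 peaks in the flanks of the clock genes, 7 lay at or near neighbours: Vamp2 and a site 2150 bp from the start of Hes7 beside Per1, Mterf2 beside Cry1, Mapk8ip1 beside Cry2, and Car11, Sphk2 and Rpl18 beside Dbp. The other two lay farther from a protein-coding start. One, upstream of Nr1d1 (98783193 to 98783697, fold 5.99, 30 fragments), lay 11819 bp from the start of Msl1. One beside Per2 (91405838 to 91406187, fold 4.72, 6 fragments) lay 6994 bp from that of Ilkap. The CKO input peaks in the flanks of Per1 (fold 6.55) and Dbp (fold 4.17) lay at the starts of Vamp2 and Car11.

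Over the 6 libraries, the genes whose profile of highest folds in the gene and 10 kb either side was nearest the median of the clock genes were Scarb1, Plekhg3, Nbeal2, Cds1 and Gm42134, at Euclidean distances of 0.0596 to 0.111. The median profile had an H3K4me3 fold of 9.79, a CKO input fold of 4.50 and no peak in the other lists. No clock gene lay as near, the nearest being Dbp at 1.90. These window values include neighbours' peaks. The H3K4me3 fold of 9.28 for Per1 is that of the peak over the start of Vamp2. For Dbp the H3K4me3 fold of 7.91 lies over the start of Rpl18, and the CKO input fold of 4.17 over that of Car11. The profile thus describes the windows and not the clock genes alone.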
